A study of Homo sapiens with 13 samples.

Results

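DEAD and DEAH box helicases form the largest family of RNA helicases in human cells and carry a conserved core that binds ATP and RNA. They unwind or clamp RNA and strip proteins from it, and each member usually serves a particular step, such as spliceosome rearrangement, mRNA export, translation, mRNA decay or processing of ribosomal RNA. The set described here was every protein-coding gene of GENCODE v44 on chromosomes 1 to 22 whose symbol is DDX or DHX followed by a number and at most 1 letter. This rule gave 51 of 19111 protein-coding genes, with 35 DDX and 16 DHX symbols, and 3 further genes on X or Y were left out by it. It used names and chromosomes alone, not binding, but the family was chosen with earlier results of these data known.

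Binding was measured in MOLM-13, an established human acute myeloid leukemia line, with no treatment, genotype or time contrast between libraries. CUT&Tag, in which an antibody directs a transposase to cut DNA beside its target, was done in 2 libraries for PTBP1, 2 for RUNX1 and 1 for IgG, and CUT&RUN, in which a nuclease does the cutting, in 2 libraries each for PTBP1, RUNX1, H3K27me3 and IgG. PTBP1 is an RNA-binding protein that recognizes pyrimidine-rich RNA and regulates splicing, and RUNX1 is a DNA-binding transcription factor of blood formation. The values analysed were 1 peak list per target, with 9370 PTBP1 and 7688 RUNX1 peaks on hg38. The lists name the target and not the assay, and were taken as CUT&Tag.

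Peak height was read as fold enrichment at the summit and as the number of fragments there, with a 95% exact Poisson interval that covers counting error only. With 1 list per target no replicate spread could be given, and no difference between genes was tested. The lowest called peak of the PTBP1 list had 11 fragments and that of the RUNX1 list 8, so a gene without a peak is one where signal was not detectable above those limits. At every helicase peak the background beneath the summit was 0.72 fragments for PTBP1 and 0.33 for RUNX1. Folds are therefore compared within a list, and across lists only as a percentile of that list.

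A PTBP1 peak lay within 1 kb of the transcription start of 25 of the 51 helicase genes (49%), against 27.2% of all protein-coding genes. A RUNX1 peak lay there at 17 (33.3%), against 22% of all genes, and peaks of both lists at 15 (29.4%), against 17.9%. The 3 highest PTBP1 peaks at these starts were at DDX5, DDX42 and DDX39B, and DDX42 and DDX5 had the highest RUNX1 peaks. No peak of either list touched the start or body of 22 members (43.1%), against 59.1% of all genes. Shares at the start were thus above the genome-wide shares for both lists, and the share without a peak was below it, as the bar plot shows. The members are a small set and these shares carry no test.

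**Figure D1:**
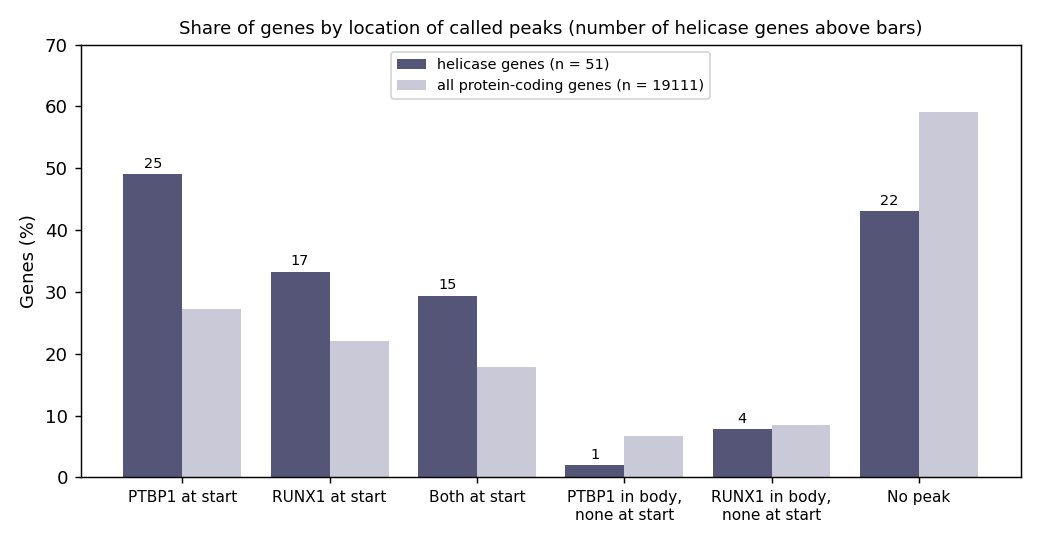
Percent of genes (y axis) by location of called peaks (x axis) for the 51 helicase genes (dark bars, counts above) and all 19111 protein-coding genes (pale bars). PTBP1 at the start was the commonest location in the helicase genes, at 49% against 27.2%, and peaks in the body with none at the start were at or below the genome-wide share.

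The classes did not divide the family by symbol alone. Peaks of both lists stood at the starts of DDX5, DDX6, DDX17, DDX19B, DDX20, DDX21, DDX39A, DDX39B, DDX42, DDX49, DDX50, DDX54, DDX59, DHX9 and DHX34. A PTBP1 peak without a RUNX1 peak stood at the starts of 10 genes, namely DDX31, DDX41, DDX51, DDX55, DDX56, DHX8, DHX35, DHX38, DHX40 and DHX58. A RUNX1 peak alone stood at the starts of DDX11 and DHX30, and DDX27 and DDX46 had peaks in the gene body only. PTBP1 alone at the start made up 19.6% of the helicases, against 9.32% of all protein-coding genes. RUNX1 alone made up 3.92%, near the 4.07% of all genes, and the body-only class 3.92%, against 9.59%. PTBP1 marked 18 of 35 DDX and 7 of 16 DHX starts (51.4% and 43.8%), while RUNX1 marked 14 DDX and 3 DHX starts (40% and 18.8%). Both peaks occurred at 13 DDX starts (37.1%) and at the DHX starts of DHX9 and DHX34 (12.5%). The DHX shares for RUNX1 and for both peaks were near or below the 22% and 17.9% of all genes, and the difference between DDX and DHX genes was not tested.

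The meeting of the 2 lists at a start was read in both directions. RUNX1 was called at 15 of the 25 helicase starts with PTBP1 (60%) and at 2 of the 26 without it (7.69%), and the corresponding values over all genes were 65.8% and 5.59%. In the other direction, PTBP1 was called at 15 of the 17 helicase starts with RUNX1 (88.2%), against 81.5% over all genes, and at 10 of the 34 without it (29.4%), against 12%. PTBP1 without RUNX1 was thus commoner at helicase starts than over all genes, while the RUNX1 share among PTBP1-marked starts was slightly below the genome-wide one.

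The helicases of splicing carried PTBP1 at 10 of 14 starts (71.4%) and RUNX1 at 5 (35.7%), against 27.2% and 22% of all protein-coding genes. The roles were chosen with earlier results of these data known, and differences between role groups were not tested. The highest PTBP1 peak of the family was at DDX5, a helicase and transcriptional co-regulator, on chr17:64505547-64507610, with 133 fragments (95% interval 111 to 158) and a fold of 77.9. DDX42, a helicase of the early spliceosome, followed on chr17:63773232-63774535 with 113 fragments (93.1 to 136) and a fold of 66.3. These intervals overlap, and both lie above that of DDX39B. DDX39B, which acts in spliceosome assembly and links splicing to mRNA export, had 62 PTBP1 fragments (47.5 to 79.5) and a fold of 36.6.

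Among RUNX1 peaks at helicase starts the order of these genes was different. DDX42 had the highest RUNX1 peak, on chr17:63773282-63775099, with 107 fragments (87.7 to 129) and a fold of 81.2. DDX5 followed on chr17:64505659-64507596 with 54 fragments (40.6 to 70.5) and a fold of 41.4, and its interval lies below that of DDX42. DDX39B and DDX6 came next among the starts, each with 31 fragments (21.1 to 44.0) and a fold of 24.1, a range that overlaps the DDX5 interval. As percentiles of their lists, DDX42 was at 97.7 in PTBP1 and 98.3 in RUNX1, and DDX5 was at 98.5 and 91.7.

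**Figure D2:**
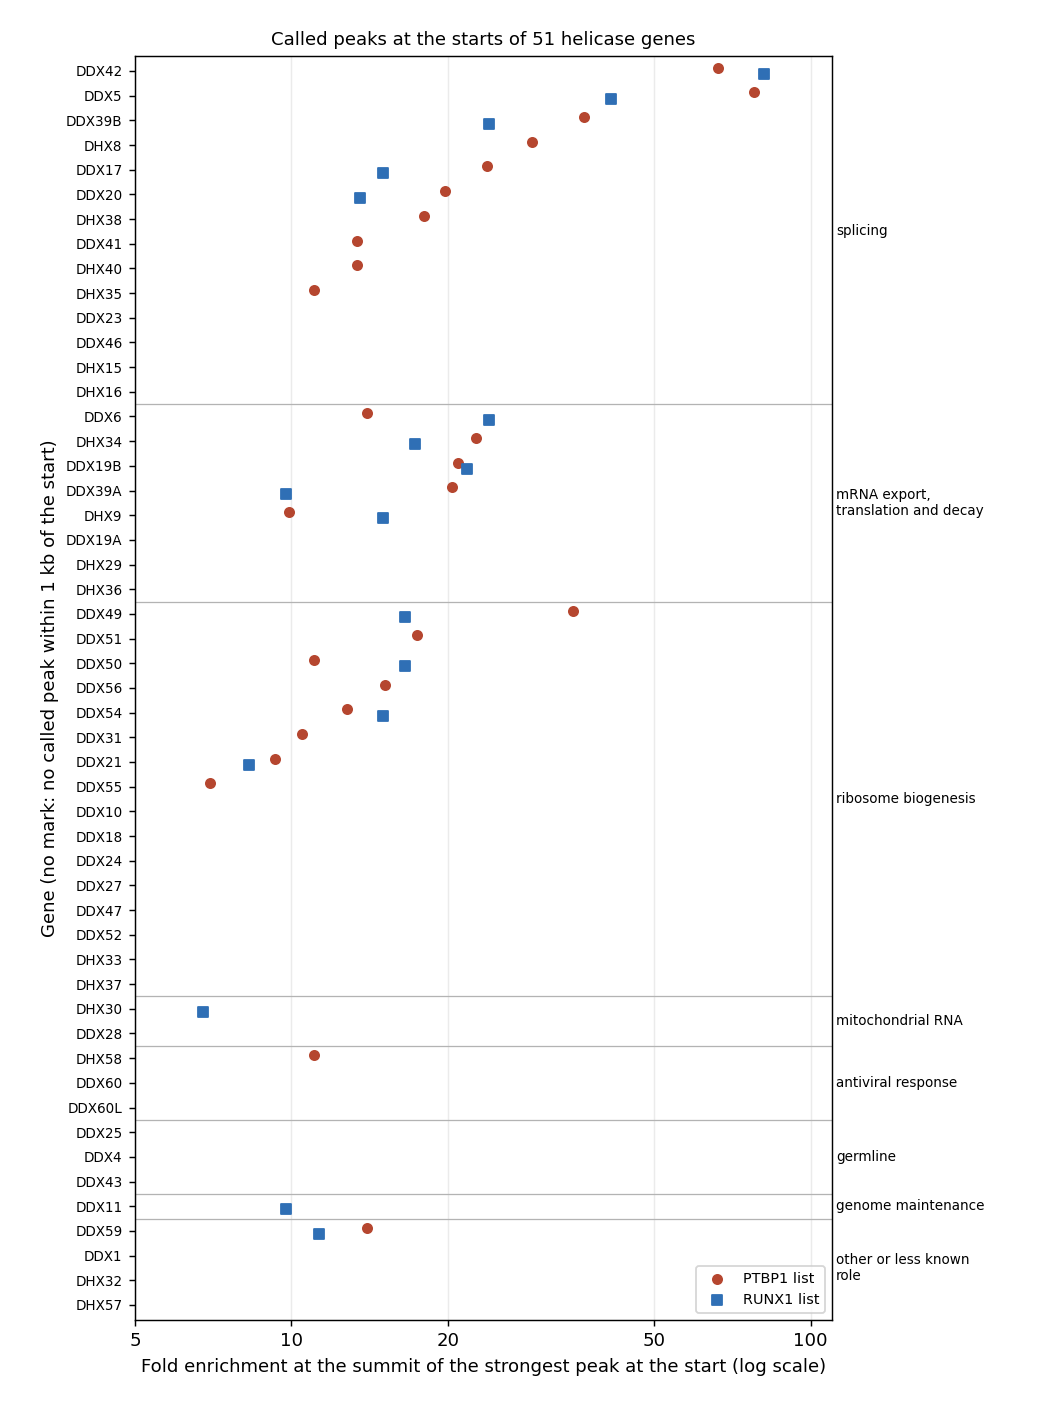
Fold enrichment (x axis, log scale) of the strongest called peak within 1 kb of the start of each of the 51 helicase genes (y axis), grouped by role, for the PTBP1 list (circles) and the RUNX1 list (squares). DDX5 and DDX42 have the highest folds in both lists, and rows with no mark are genes without a called peak at the start. Folds of the 2 lists rest on different backgrounds.

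Of the other splicing helicases with both peaks, DDX17, the close paralog of DDX5, had folds of 23.8 for PTBP1 and 15.0 for RUNX1. DDX20, a member of the SMN complex that assembles spliceosomal snRNPs, had 19.8 and 13.5. The remaining 5 PTBP1-marked splicing genes had no RUNX1 peak at the start. Among them DHX8, which releases the spliced mRNA from the spliceosome, had the fifth highest PTBP1 peak of the family, on chr17:43483086-43484310, with 49 fragments (36.3 to 64.8) and a fold of 29.1. DHX38, which drives remodeling for the second splicing step, had a fold of 18.0, with 30 fragments (20.2 to 42.8).

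DDX41, a splicing helicase mutated in familial myeloid neoplasms, and DHX40 each had 22 PTBP1 fragments (13.8 to 33.3) and a fold of 13.4. DHX35 had 18 fragments (10.7 to 28.4) and a fold of 11.0. The intervals of DDX41, DHX40 and DHX35 overlap one another and lie below that of DHX8, whereas the DHX38 interval overlaps that of DHX8. No peak of either list was found at DDX23, DHX15 or DHX16, which act in spliceosome activation and disassembly. Among splicing genes without a RUNX1 peak at the start, DHX8 thus held the highest PTBP1 peak, at the 88.5 percentile of the list.

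Among the 8 helicases of mRNA export, translation and decay, every PTBP1-marked start was also RUNX1-marked, against 65.8% of PTBP1-marked starts over all genes. These 5 genes were DDX6, DDX19B, DDX39A, DHX9 and DHX34. DDX6, a helicase of translational repression and decapping, had 23 PTBP1 fragments (14.6 to 34.5; fold 14.0) and 31 RUNX1 fragments. DDX19B, which releases proteins from mRNA at the nuclear pore, had 35 PTBP1 fragments (24.4 to 48.7; fold 20.9) and 28 RUNX1 fragments (18.6 to 40.5; fold 21.8), the fifth highest RUNX1 peak at a helicase start.

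DHX34, which acts in nonsense-mediated decay, had a PTBP1 fold of 22.7 and a RUNX1 fold of 17.3. DDX39A, the export paralog of DDX39B, was higher in its list for PTBP1 (20.3, percentile 78.5) than for RUNX1 (9.77, percentile 15.5). DHX9, a nuclear helicase with roles in transcription and RNA structure, ran the other way, with a PTBP1 fold of 9.88 (percentile 27.7) and a RUNX1 fold of 15.0 (percentile 49.4). DDX19A, DHX29, which assists ribosome scanning, and DHX36, which unwinds G-quadruplexes, had no peak.

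The ribosome biogenesis helicases, the largest group with 16 genes, had PTBP1 at 8 starts (50%), against 27.2% of all protein-coding genes. They had RUNX1 at 4 (25%), near the 22% of all genes. DDX49 had the highest peak of the group, with 59 PTBP1 fragments (44.9 to 76.1; fold 34.9) and 21 RUNX1 fragments (13.0 to 32.1; fold 16.5). The nucleolar paralogs DDX21 and DDX50, which lie next to each other on chromosome 10, both had both peaks. Their PTBP1 folds were 9.30 and 11.0, and their RUNX1 folds were 8.27 and 16.5. DDX54 had folds of 12.8 for PTBP1 and 15.0 for RUNX1.

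The other 4 PTBP1-marked genes of the group had no RUNX1 peak at the start, and their peaks ranged from the 2.79 percentile of the list at DDX55 to the 71.8 percentile at DDX51. DDX51 had 29 fragments (19.4 to 41.6; fold 17.4) and DDX56 had 25 (16.2 to 36.9; fold 15.1). DDX31 had 17 fragments (9.90 to 27.2; fold 10.5). DDX55 had 11 (5.49 to 19.7; fold 6.98) and a −log10 q of 8.01, the PTBP1 peak of the family closest to the calling threshold of 7. No peak was found at DDX10, DDX18, DDX24, DDX47, DDX52, DHX33 or DHX37, which are needed for processing of ribosomal RNA or ribosome assembly.

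The remaining groups were small. DHX30, a helicase of mitochondrial RNA granules, had a RUNX1 peak on chr3:47803043-47803373 with 8 fragments (3.45 to 15.8), a fold of 6.77 and a −log10 q of 7.25, so it stood at the lowest fragment count called in that list. DDX11, a DNA helicase of sister chromatid cohesion, had a RUNX1 peak on chr12:31074129-31074642 in intron 1 with 12 fragments (6.20 to 21.0) and a fold of 9.77. Both RUNX1-only starts were thus among the weakest RUNX1 peaks of the family.

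Among the antiviral helicases, DHX58, a cytoplasmic sensor related to RIG-I, had a PTBP1 peak of 18 fragments (10.7 to 28.4; fold 11.0), and the interferon-induced DDX60 and DDX60L had none. The germline helicases DDX4, DDX25 and DDX43 had no peak, nor did DDX28 of the mitochondrial ribosome, DDX1, DHX32 or DHX57. DDX59 had folds of 14.0 for PTBP1 and 11.3 for RUNX1. Expression was not analysed here, so whether the unmarked genes are expressed in these cells was not tested.

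Close paralogs could be read side by side. DDX5 with DDX17, DDX39A with DDX39B, and DDX21 with DDX50 had both peaks at both starts, and DDX60 with DDX60L had none. DDX19B had both, at the outer end of the gene and not at the start of its canonical transcript, and its neighbor DDX19A had none. Reads were kept above a mapping quality of 30, which removes those that match near-identical copies equally well, and the part of this filter in the absent peaks at DDX19A and the low peak at DDX11 was not tested.

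At the 15 starts with peaks of both lists, the peaks overlapped in all 15, and the summits lay 0 to 266 bases apart, with a median of 93. At 12 the distance was at most 200 bases, which is 23.5% of the 51 genes, against 14.4% of all protein-coding genes. With both peaks at any distance these shares were 29.4% and 17.9%. The summits fell on the same base at DDX49 and lay 4, 5 and 7 bases apart at DDX19B, DDX54 and DHX34, whereas DDX42, DHX9 and DDX39A had the widest gaps at 228, 248 and 266 bases. PTBP1 had the higher percentile in 11 of the 15 pairs, and RUNX1 had it at DDX6, DDX42, DDX50 and DHX9. The same count was not made over all starts with both peaks, so it cannot be read as particular to the helicases.

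**Figure D3:**
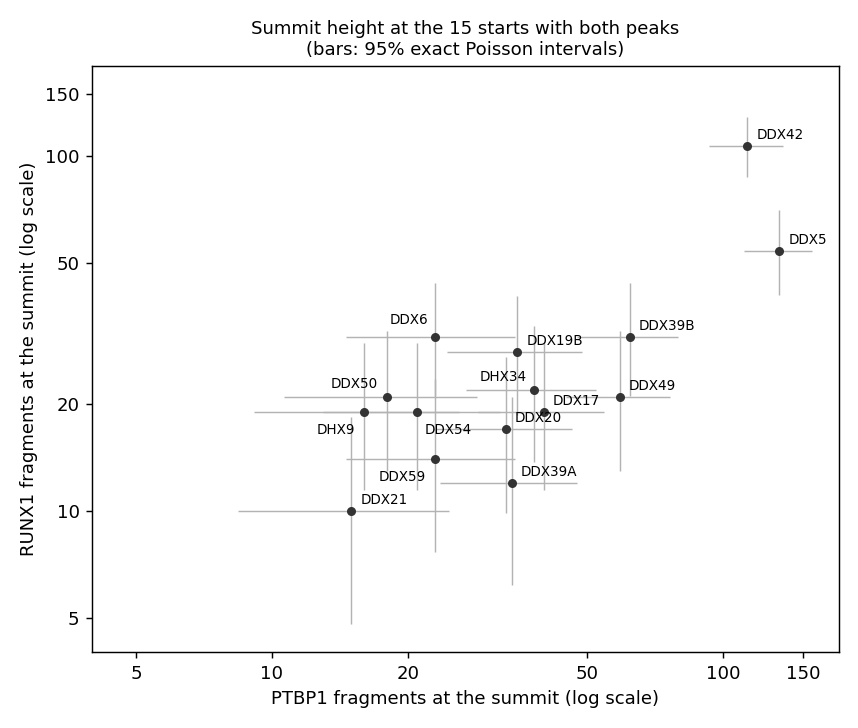
Fragments at the summit of the PTBP1 peak (x axis, log scale) and RUNX1 peak (y axis, log scale) at the 15 helicase starts with both, with 95% exact Poisson intervals as bars. DDX5 and DDX42 lie above the other 13 starts in both lists, with 133 and 113 PTBP1 fragments and 54 and 107 RUNX1 fragments.

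Peak heights at helicase starts had the same median as those at other marked starts. The median fold was 15.1 over the 25 PTBP1 peaks at helicase starts (6.98 to 77.9) and 15.1 over the 4428 PTBP1 peaks at all protein-coding starts. For RUNX1 it was 15.0 over 18 peaks (6.77 to 81.2) and 15.0 over 3504. RUNX1 had 18 peaks at 17 genes because DDX19B had a second, lower one with 11 fragments.

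Summits lay close to the start of the canonical transcript, and at several genes this was not the 5′ end of the gene record. Counting positive downstream, the PTBP1 summit of DDX5 was at 1694 bases from the 5′ end of the gene record but at -216 bases from the canonical start. The same held at DDX17, at 1144 and -205 bases, at DDX56, at 990 and -153 bases, and at DDX20, at 893 and -176 bases. Of the 25 PTBP1 summits, 20 lay within 500 bases of that end and 24 within 500 bases of the canonical start. For the 18 RUNX1 summits these counts were 14 and 16.

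**Figure D4:**
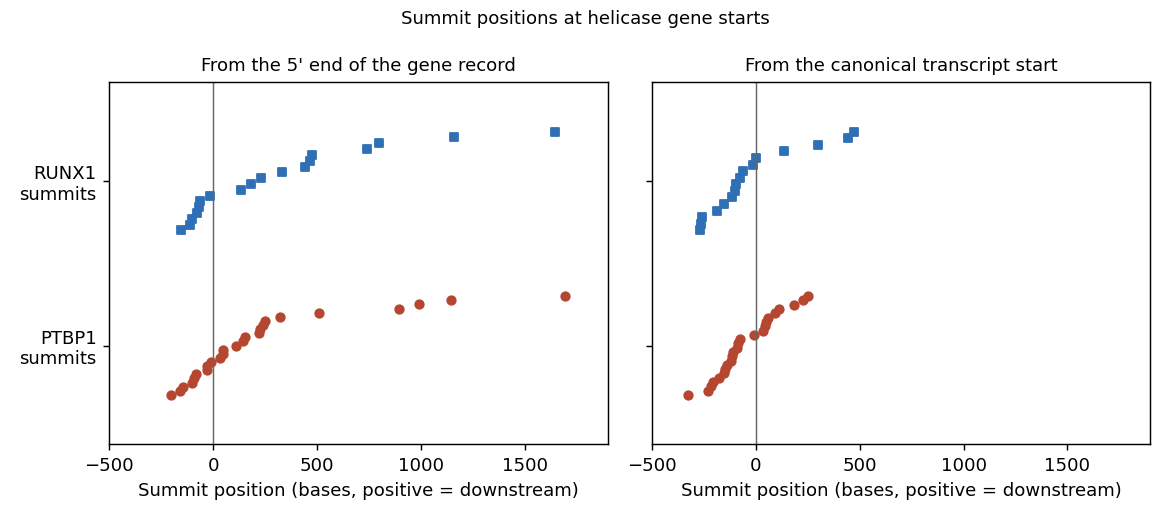
Position of each summit at a helicase start (x axis, bases, positive downstream) from the 5′ end of the gene record (left) and from the canonical transcript start (right), for PTBP1 (circles) and RUNX1 (squares), spread vertically for display. The far-downstream summits of DDX5, DDX17, DDX20 and DDX56 move to within 500 bases on the right, where the DDX19B summits fall outside the axis.

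DDX19B was the exception, since its canonical transcript starts 9523 bases inside the gene and its peaks stayed at the outer end, which is shared with AARS1, an alanyl-tRNA synthetase gene on the other strand. By annotation, 16 PTBP1 summits were upstream of the canonical transcript, 3 in a 5′ UTR exon, 2 in a coding exon and 4 in intron 1. For RUNX1, 13 were upstream, 2 in a 5′ UTR exon and 3 in intron 1.

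A start within 1 kb of another protein-coding gene's start was commoner among the helicases, at 13 of 51 (25.5%), than in the genome, at 17.6%, and a peak there cannot be given to either gene. Those 13 carried PTBP1 at 7 (53.8%), RUNX1 at 4 (30.8%) and both at 4 (30.8%), and the shares over all such starts were 48.9%, 37.8% and 32.9%, so that RUNX1 and double marks were not above the genome-wide share there. Without them, 18 of 38 helicase starts had PTBP1 (47.4%), 13 had RUNX1 (34.2%) and 11 had both (28.9%), and the shares over other unshared starts were 22.6%, 18.6% and 14.7%. The marked starts with such a neighbor were DDX19B with AARS1, DDX20 with INKA2, DDX31 with GTF3C4, DDX49 with COPE, DDX51 with NOC4L, DDX54 with RITA1 and DHX38 with TXNL4B. The DDX5 peaks also lay near the start of CEP95. With noncoding genes counted too, 14 of the 25 PTBP1 peaks at helicase starts lay within 1 kb of another gene's start. For RUNX1 this held at 12 of 18 peaks, and the shares over all marked starts were not computed.

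RUNX factors recognize a short DNA motif, which was searched as TGTGGT or TGCGGT on either strand in the 101 bases centered on each summit. The motif was in 8 of 18 RUNX1 windows at helicase starts (44.4%), against 12.9% of RUNX1 windows at all protein-coding starts. It was in 4 of 25 PTBP1 windows (16%), against 6.89%. The 8 RUNX1 windows were those of DDX17, DDX19B, DDX20, DDX49, DDX50, DDX54, DHX9 and DHX34, and the 4 PTBP1 windows were those of DDX19B, DDX49, DDX54 and DHX34, where both summits nearly coincide and the windows share most of their bases. In windows 500 bases to the left of the summit, a comparison chosen after seeing the data, the motif was in 2 of 18 for RUNX1 (11.1%) and 1 of 25 for PTBP1 (4%), against 6.85% and 7.16% over all starts.

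The windows of 6 of these starts are shown to let the motif be seen in its sequence, each from hg38 on the strand of the gene, 5′ to 3′, with the motif or its reverse complement in capitals. They are centered on the RUNX1 summit, and that of DDX49 is also the PTBP1 window.
DDX49, chr19:18919551-18919651, plus strand: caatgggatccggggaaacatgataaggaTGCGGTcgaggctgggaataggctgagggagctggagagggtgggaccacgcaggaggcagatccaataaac
DHX34, chr19:47349187-47349287, plus strand: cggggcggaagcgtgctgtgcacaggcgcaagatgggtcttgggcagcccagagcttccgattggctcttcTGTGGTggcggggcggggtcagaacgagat
DHX9, chr1:182839771-182839871, plus strand: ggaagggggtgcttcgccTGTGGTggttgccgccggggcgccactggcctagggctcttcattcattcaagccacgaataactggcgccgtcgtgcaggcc
DDX17, chr22:38506449-38506549, minus strand: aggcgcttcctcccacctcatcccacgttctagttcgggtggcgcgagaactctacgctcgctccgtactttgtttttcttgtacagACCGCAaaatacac
DDX20, chr1:111755582-111755682, plus strand: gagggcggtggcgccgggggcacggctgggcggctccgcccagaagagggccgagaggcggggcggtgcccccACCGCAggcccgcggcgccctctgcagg
DDX50, chr10:68901168-68901268, plus strand: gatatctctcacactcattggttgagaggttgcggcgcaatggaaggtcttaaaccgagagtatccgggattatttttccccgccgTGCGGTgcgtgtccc

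Among these 6 windows, DHX9 and DHX34 hold the TGTGGT form and the others the TGCGGT form, read on either strand. With TGTGGT alone, 3 of 18 RUNX1 windows matched (16.7%), against 5.65% of all. The letters found are a description of the windows and not evidence of contact. The strongest RUNX1 starts, DDX42 and DDX5, were not among the 8 windows with the motif.

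The other motifs searched at the summits showed smaller gaps from the genome-wide share than the RUNX motif at RUNX1 summits. The GC box GGGCGG, read by SP factors, was in 24% of PTBP1 and 33.3% of RUNX1 windows at helicase starts, against 41.8% and 44.9% at all starts. The ETS motif CCGGAAG was in 2 of 25 PTBP1 and 2 of 18 RUNX1 windows (8% and 11.1%), against 5.04% and 5.74%. CCAAT, the motif of nuclear factor Y, was in 5 windows of each list (20% and 27.8%), against 16.8% and 16.7%. Median GC of the RUNX1 windows was 62.9% at helicase starts and 69.3% at all starts, and its part in these shares was not tested.

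**Figure D5:**
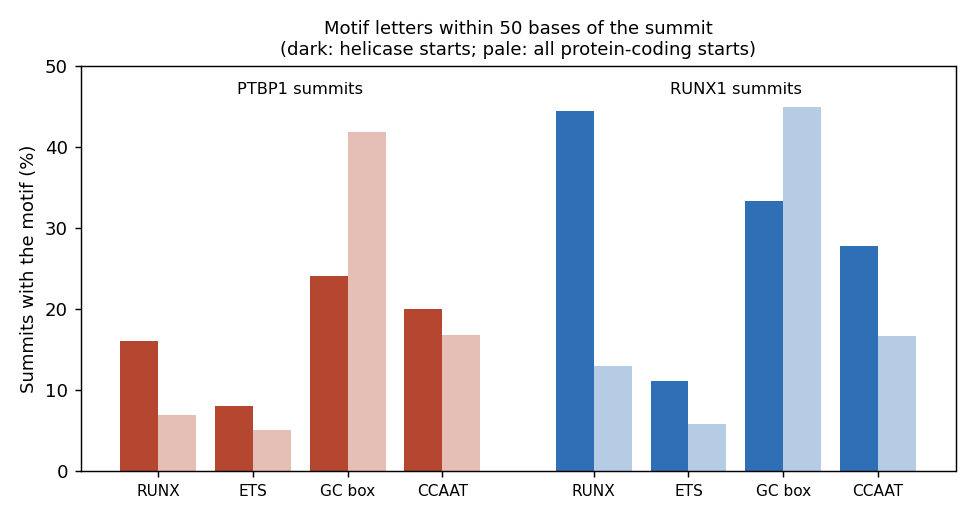
Percent of summits (y axis) whose 101-base window holds each motif (x axis) on either strand, for PTBP1 (left) and RUNX1 (right), at helicase starts (dark bars) and at all protein-coding starts (pale bars). The widest gap is the RUNX motif at RUNX1 summits, at 44.4% against 12.9%, and the GC box runs lower at the helicase starts in both lists.

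The promoters themselves, taken as 250 bases before to 50 bases after the canonical start, held the ETS motif more often than promoters in general. The ETS motif CCGGAAG was in 22 of 51 helicase promoters (43.1%), against 14.2% of all 19111. It was in 12 of the 27 with a peak at the start (44.4%) and in 10 of the 24 without (41.7%). Over all genes it was 19.6% of promoters with both peaks at the start and 11.6% of those of genes with no peak. The difference between marked and unmarked helicase promoters was not tested.

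The E-box CACGTG, read by MYC and other factors, was in 12 helicase promoters (23.5%), against 8.69% of all. It was in 22.2% of those with a peak at the start and 25% of those without. CCAAT was in 24 (47.1%, against 35.7%), the RUNX motif in 15 (29.4%, against 18.9%) and the GC box in 29 (56.9%, against 61.7%). The RUNX motif was in 33.3% of helicase promoters with a peak at the start and 25% of those without. Over all genes it was in 19.7% of promoters with both peaks and 18.8% of those of genes with no peak. These differences were not tested. Median GC was 60.7% in helicase promoters and 63.7% in all promoters, and the median number of CpG was 24 and 23.

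Inside gene bodies, beyond 1 kb from the start, PTBP1 peaks were found at 8 helicase genes (15.7%), against 12.8% of all protein-coding genes, and RUNX1 peaks at 4 (7.84%), against 11.9%. Genes with a body peak and none of that list at the start numbered 1 for PTBP1 (1.96%, against 6.71%) and 4 for RUNX1 (7.84%, against 8.52%). Body marks in the family were thus near or below the genome-wide shares. Median gene length was 33390 bases in the helicases and 27877 in all genes.

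DDX46, a helicase of early spliceosome assembly with no peak at its start, had a peak of each list in its body. The RUNX1 peak, on chr5:134813576-134814180 in intron 18, had 22 fragments (13.8 to 33.3) and a fold of 17.3. The PTBP1 peak, on chr5:134845817-134846524, lay past the end of the canonical transcript and near the start of C5orf24, with 28 fragments (18.6 to 40.5) and a fold of 16.9. The 2 peaks did not overlap. DDX27, a helicase of large-subunit assembly, had a RUNX1 peak on chr20:49230686-49231185 in intron 9 with 18 fragments (10.7 to 28.4) and a fold of 14.3.

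DDX31 and DHX8 had PTBP1 at the start and RUNX1 in the body. The RUNX1 peak of DDX31, on chr9:132596507-132597770 in intron 19, was the highest body peak of the family, with 36 fragments (25.2 to 49.8) and a fold of 27.8. At DHX8 a RUNX1 peak of 11 fragments (5.49 to 19.7; fold 9.02) and a PTBP1 peak of 20 (12.2 to 30.9; fold 12.2) overlapped, with summits 2 bases apart, past the end of the canonical transcript. This was the single place in a helicase gene body where peaks of both lists overlapped. None of the 4 RUNX1 body peaks lay within 1 kb of the 5′ end of another gene record, whereas 4 of the 10 PTBP1 body peaks did. Other transcript starts inside those records were not searched, so a body peak may still lie at the start of another gene.

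The intronic RUNX1 windows of DDX46 and DDX31 held the RUNX motif and are shown because they are the RUNX1 body peaks with it, on the strand of the gene in hg38 with the motif or its reverse complement in capitals. DDX46 has 2 sites on opposite strands. Both windows are centered on the RUNX1 summit.
DDX46, chr5:134813985-134814085, plus strand: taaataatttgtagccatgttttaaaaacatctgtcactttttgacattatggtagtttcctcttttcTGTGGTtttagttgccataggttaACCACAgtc
DDX31, chr9:132597294-132597394, minus strand: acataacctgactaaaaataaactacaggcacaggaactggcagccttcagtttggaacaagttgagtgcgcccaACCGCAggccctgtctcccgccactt

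The other PTBP1 body peaks belonged to genes that also had PTBP1 at the start. DHX58 had 2, with folds of 15.1 in intron 7 and 9.30 in coding exon 14, and the first was higher than its peak at the start. DDX49 had 2, with folds of 11.6 in coding exon 5 and 8.14 in the 3′ UTR. DDX39A had 1 with 9.88 in coding exon 7, DDX5 1 with 9.30 in intron 11, DDX39B 1 with 8.72 in coding exon 2 and DDX51 1 with 8.14 in intron 6. Of the 10 PTBP1 body peaks, 4 had their summit in a coding exon and 3 in an intron.

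The 22 members without a peak were DDX1, DDX4, DDX10, DDX18, DDX19A, DDX23, DDX24, DDX25, DDX28, DDX43, DDX47, DDX52, DDX60, DDX60L, DHX15, DHX16, DHX29, DHX32, DHX33, DHX36, DHX37 and DHX57. The nearest PTBP1 peak lay 4618 to 3756644 bases from their starts, with a median of 80161, and the nearest RUNX1 peak 4477 to 4036562 bases, with a median of 134738. DHX37 was the nearest to a peak of each list, and DDX1, whose product acts in tRNA ligation, was the farthest.

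A further 12 helicases of the same superfamily with other symbols were listed for comparison. PTBP1 was at 4 of their starts (33.3%), against 27.2% of all protein-coding genes, and RUNX1 at 1 (8.33%), against 22%. No peak was found at 6 of the 12, against 59.1% of all genes. The translation initiation helicase EIF4A1 was the strongest in both lists, with 108 PTBP1 fragments (88.6 to 130; fold 63.4) and 24 RUNX1 fragments (15.4 to 35.7; fold 18.8), and summits 6 bases apart. Its PTBP1 interval overlaps those of DDX42 and DDX5, while its RUNX1 interval lies below that of DDX42.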

How the data were processed

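Per the labels and the study's methods, the authors mapped read pairs with Bowtie2 to hg38, discarded those not above a mapping quality of 30 and used MACS3 for peak calling with a q threshold of 1e-07. The submitters' processing notes also name bedtools 2.30.0. Whether replicates were pooled is not given in the sources used here. The deposited lists give each peak an integer score, a fold enrichment and a −log10 p and −log10 q, all made by the authors. From these, the fragments and background at the summit were solved, with a pseudocount of 1, and checked against the deposited p. Peaks were joined to GENCODE v44 starts within 1000 bases, then to gene bodies. Sequences came from hg38. The steps were tested on simulated data in Python 3.11.15 (with scipy 1.17.1, pandas 2.3.3 and numpy 2.4.6), and figures were drawn with matplotlib 3.10.9. Every member was placed in a class, with full values for the 5 highest folds at the start in each list, members marked in 1 list, body-only members and those nearest the threshold. The members, roles and motifs were chosen with earlier results of these data known. The other libraries were not used, since the 2 peak lists were the files analysed.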

Additional observations from a re-analysis of the deposited data

How the results depend on the processing

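No paired analysis was possible because each target had 1 peak list and no values per replicate, which also leaves no replicate to omit. When the start base itself had to lie inside the peak, RUNX1 was at 11 helicase starts in place of 17 (21.6%, against 16.1% of all genes). This rule, stricter by construction, dropped DDX5, DDX11, DDX17, DDX20, DDX21 and DHX30. Extending the search to 100 bases on each side, the RUNX motif was in 7 of 25 PTBP1 windows in place of 4 (28%, against 13.4% at all starts). With TGTGGT alone, a narrower search by construction, it was in 2 PTBP1 windows (8%, against 3.52%). In RUNX1 windows it was then in 3 of 18 in place of 8 (16.7%, against 5.65%). Other settings were windows of 500 or 2000 bases, canonical starts, any coding transcript start, a −log10 q of at least 10 and usual background. With these, PTBP1 was at 21 to 25 of 51 starts (41.2% to 49%), against 25.7% to 30.6% of all genes. Both peaks were at 12 to 15 (23.5% to 29.4%), against 16.7% to 20.6%. With the start base inside the peak, PTBP1 was at 19 (37.3%, against 20.5%) and both peaks at 11 (21.6%, against 12.3%). Among 38 unshared starts, PTBP1 was at 18 (47.4%, against 22.6%) and both peaks at 11 (28.9%, against 14.7%). Windows of 500 bases dropped DDX5, DDX17 and DDX20 from both lists, and DDX56 from PTBP1. Canonical starts dropped DDX19B, and the higher q dropped DDX55 and DHX30. Counts of genes with body peaks only were recomputed with the summit inside the gene and with the higher q alone, and stayed at 1 and 4 in both. Depth sets a floor of 11 PTBP1 or 8 RUNX1 fragments for a call.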
